A study of Homo sapiens with 2 samples.

Results

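The zinc finger genes of distal 19q were taken as the protein-coding genes whose symbol begins with ZNF and whose start site lies between positions 52500000 and 58700000 of chromosome 19 (hg19). This gave 85 members of 20162 protein-coding genes, and the same stretch held 127 other protein-coding genes. The measurements were whole-genome bisulfite calls from 2 acute myeloid leukemia (AML) cell lines. OCI-AML3 carries a heterozygous R882C change in DNMT3A, a de novo DNA methyltransferase, and AML5 (titled OCI-AML5) is wild type for DNMT3A. Both were grown in the same medium with serum and went through the same library preparation, with unmethylated lambda DNA spiked in. Each line gave 1 library and the lines come from different patients, so the DNMT3A allele and every other difference between the lines cannot be told apart. No test across cultures was possible. The files hold methylation calls alone, so neither the DNMT3A genotype nor the leukemic identity of the cells was checked here.

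Most of these genes encode DNA-binding repressors with a row of C2H2 zinc fingers, and in many of them an amino-terminal KRAB domain recruits TRIM28 and, through it, the H3K9 methyltransferase SETDB1 and HP1 proteins. The genes lie in tandem clusters that arose by duplication, and the fingers are encoded together in a long 3′ exon. Promoters of KRAB zinc finger genes usually hold a CpG island, while their bodies carry dense DNA methylation and, over the 3′ exons, the heterochromatin mark H3K9me3.

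The libraries held 902802339 methylation calls (OCI-AML3) and 894828667 (AML5). The median depth in the 19q stretch was 34 and 33 calls per CpG. Depth differed between the lines at the stretch's lower end. The bodies of ZNF615, ZNF614, ZNF432 and ZNF841 averaged 27.6 to 32.6 calls per CpG in OCI-AML3 and 49.0 to 56.8 in AML5. The next member, ZNF616, had 37.8 in OCI-AML3 and 36.7 in AML5. Whether this depth bears on a methylation difference was not tested. All values below are the mean over CpG dinucleotides with more than 5 calls in both lines, in percent, and differences are OCI-AML3 minus AML5 in percentage points. Where a pair of levels is given without names, the first is OCI-AML3 and the second AML5. A difference of over 20 points over at least 10 CpGs was called. Over 104916 CpGs the whole stretch averaged 66.2% (OCI-AML3) and 73.5% (AML5) and differed by -7.29 points, and all of chromosome 19 differed by -7.85 points. Intervals are Wilson 95% intervals of the share of methylated calls and, like any floor, cover counting error only. At the mean depth of 46 and 39 calls per CpG in the members' promoters, 3 calls amount to 6.43% and 7.61%. A single CpG with 0 methylated calls could therefore have a level of up to about this floor.

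Of the 4 members whose 500 bp on either side of the start were above 66% in OCI-AML3 and below 20% in AML5, ZNF160, ZNF347 and ZNF471 are shown by the 250 bp just upstream of the start, read from the hg19 genome in the direction of transcription. Capitals mark each CpG that was higher in OCI-AML3 by Fisher's exact test on its calls. The last sequence, from ZNF550, is the longest run of CpGs lower in OCI-AML3 within 2000 bp of a member's start, and there the capitals mark CpGs lower in OCI-AML3. None of the 4 stretches overlaps an annotated UTR.
ZNF160, chr19:53606688-53606937, minus strand: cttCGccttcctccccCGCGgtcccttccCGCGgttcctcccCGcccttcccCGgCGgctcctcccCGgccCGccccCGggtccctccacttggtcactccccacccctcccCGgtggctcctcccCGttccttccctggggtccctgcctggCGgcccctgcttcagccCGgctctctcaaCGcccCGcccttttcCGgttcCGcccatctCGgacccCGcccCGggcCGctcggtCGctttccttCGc
ZNF347, chr19:53662329-53662578, minus strand: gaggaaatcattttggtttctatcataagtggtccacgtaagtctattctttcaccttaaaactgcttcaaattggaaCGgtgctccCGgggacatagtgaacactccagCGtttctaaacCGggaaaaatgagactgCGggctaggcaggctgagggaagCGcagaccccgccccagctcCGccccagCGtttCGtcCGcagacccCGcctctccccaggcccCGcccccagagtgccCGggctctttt
ZNF471, chr19:57018969-57019218, plus strand: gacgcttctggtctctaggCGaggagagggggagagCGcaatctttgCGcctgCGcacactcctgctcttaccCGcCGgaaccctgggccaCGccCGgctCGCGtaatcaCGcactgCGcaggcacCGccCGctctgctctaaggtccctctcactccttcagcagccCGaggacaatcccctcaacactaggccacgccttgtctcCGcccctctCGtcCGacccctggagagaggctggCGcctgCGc
ZNF550, chr19:58071638-58071812, minus strand: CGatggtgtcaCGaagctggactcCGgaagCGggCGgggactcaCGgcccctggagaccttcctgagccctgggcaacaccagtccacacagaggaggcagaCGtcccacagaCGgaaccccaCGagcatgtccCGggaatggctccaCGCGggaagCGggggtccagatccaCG
In the ZNF160 stretch 25 of 26 tested CpGs were higher in OCI-AML3, with a mean of 72.0%. In AML5 0 of 818 calls in that stretch were methylated, which allows a share of up to 0.367%. The ZNF347 stretch had 13 of 15 higher (61.7% and 4.76%) and ZNF471 had 20 of 22 (81.0% and 8.99%). In ZNF550 all 14 CpGs of the run were lower, at 19.1% in OCI-AML3 and 92.2% in AML5.

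Promoters were compared first, as windows reaching 2000 bp to each side from the start site furthest upstream in the annotation. Of the 85 member promoters, 9 were higher in OCI-AML3 by over 20 points and 0 were lower. Among all 19667 protein-coding promoters with enough CpGs the call went the other way, with 1.79% higher and 8.61% lower. The members' share was 10.6% higher, against 1.83% of 164 ZNF genes elsewhere on chromosome 19 and 0.787% of the other genes of the stretch. The lower calls were 3.05% and 5.51% in those sets. The 9 higher promoters were those of ZNF160, ZNF606, ZNF347, ZNF814, ZNF154, ZNF471, ZNF610, ZNF667 and ZNF329.

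ZNF160 (chr19:53604687-53608687, 139 CpGs) had 64.5% in OCI-AML3 and 23.1% in AML5. Its share of methylated calls was 64.4% (63.3 to 65.5) in OCI-AML3 and 26.7% (25.6 to 27.9) in AML5, so the intervals lie far apart. ZNF606 (chr19:58512717-58516717, 158 CpGs) stood at 75.1% and 33.7%, the same difference of 41.4 points as ZNF160. Both lay below the members' median of 39.9% in AML5 and above their median of 41.0% in OCI-AML3. ZNF347 (chr19:53660328-53664328) had 69.6% in OCI-AML3 and 31.8% in AML5. ZNF814 (chr19:58398442-58402442) had 85.4% and 49.4%. ZNF154, whose promoter is known to be methylated in many solid tumors (chr19:58218572-58222572), had 91.1% and 56.0%, and was the only one of the 9 with 0 CpGs called lower. ZNF471 (chr19:57017219-57021219), another gene known from promoter methylation in cancer, had 66.7% and 31.7%. ZNF610 (chr19:52837496-52841496) had 77.5% and 45.5%. ZNF667 (chr19:56987434-56991434), the human counterpart of the ischemia-induced rat gene Mipu1, had 80.0% and 50.4%. The 6 differences from ZNF347 to ZNF667 lay between 29.6 and 37.9 points. ZNF329 was just past the threshold at 73.4% and 52.6% (20.8 points), and ZNF256 just short of it at 75.1% and 58.0% (17.2 points). ZNF772 (16.1 points), ZNF415 (15.2 points) and ZNF677 (14.0 points) followed. The start used for ZNF329 lies 4321 bp from the canonical one, so this window does not hold its canonical start.

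**Figure D1:**
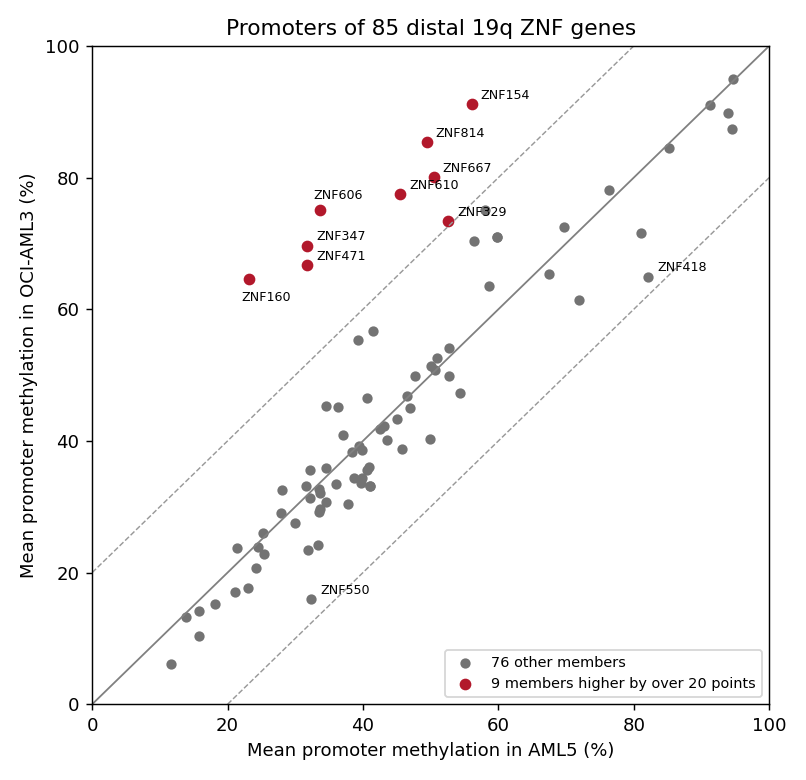
Mean promoter methylation of the 85 members in AML5 (horizontal, %) and OCI-AML3 (vertical, %), 1 point per member and 1 library per line; the solid line marks equal levels and the dashed lines a difference of 20 points. The 9 red points lie above the upper dashed line and no point lies below the lower one.

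The middle of the members' distribution lay close to 0. Member promoters had median levels of 41.0% (OCI-AML3) and 39.9% (AML5). Their median difference was -0.67 points, with quartiles of -4.25 and 3.46. Over all protein-coding promoters the median difference was -4.68 points, over the other genes of the stretch -5.40 and over ZNF genes elsewhere on the chromosome -3.33. Counted by sign alone, 49 member promoters (57.6%) were lower and 36 higher, against 84.7% lower over all protein-coding promoters and 78.0% over ZNF genes elsewhere on the chromosome. All members had enough CpGs, from 48 to 204 per promoter, and 9523 of 9844 listed CpGs (96.7%) passed the depth limit.

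Decreases in member promoters were smaller. ZNF418 (chr19:58444770-58448770) stood at 64.9% against 82.2% in AML5 and differed by -17.2 points. ZNF550 (chr19:58069231-58073231) had 16.0% and 32.4%, a difference of -16.4 points, and 14 of its 30 lower CpGs form the run printed above. ZNF578 (61.4% and 71.9%), ZNF615 (40.3% and 49.9%), ZNF534 (71.6% and 81.0%), ZNF865 (24.1% and 33.3%) and ZNF470 (23.4% and 32.0%) differed by -10.5 to -8.58 points. ZNF28 and ZNF468 start 49 bp apart and share 1 set of CpGs, with 33.1% in OCI-AML3 and 41.0% in AML5. None of these passed 20 points.

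Close to the start the differences were larger. Within 500 bp of the start, 83 members had 10 or more CpGs, and 16 of them (19.3%) were higher in OCI-AML3 by over 20 points, with 0 lower. Over all 17276 genes tested in the same way 3.27% were higher and 9.51% lower, and among ZNF genes elsewhere on chromosome 19 the shares were 8.70% and 5.59%. ZNF160 had 74.1% in OCI-AML3 and 0.30% in AML5, where the share of calls was 0.37% (0.21 to 0.66). ZNF347 had 68.2% and 3.98%. ZNF471 had 79.6% and 16.3%, and ZNF610 78.8% and 18.0%. At the start furthest upstream, these 4 were the members with a core below 20% in AML5 and above 66% in OCI-AML3. That pattern was held by 43 of all 17276 genes (0.249%). The opposite pattern was held by 0 members and by 122 of all genes.

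The other 12 members with a higher core had intermediate levels in at least 1 line. ZNF814 had 85.9% in OCI-AML3 and 25.2% in AML5, and ZNF154 had 88.5% and 32.5%. ZNF667 (82.4% and 34.5%), ZNF256 (79.5% and 33.2%) and ZNF329 (77.5% and 31.8%) were alike. ZNF841 and ZNF432, which start 27 bp apart and are counted as 2 members over nearly the same CpGs, had 75.2% and 36.3%, and 74.8% and 38.2%. ZNF606 had 74.3% and 38.3% in this window, while its run of higher CpGs described below reaches 994 bp downstream. Its canonical start lies 529 bp downstream of the one used, outside this window and inside that run. ZNF665 (67.6% and 34.0%), ZNF677 (71.0% and 39.1%), ZNF772 (47.6% and 19.1%) and ZNF415 (53.8% and 29.4%) completed the group. Most cores had low methylation throughout, with 52 of the 83 below 20% in both lines. Another 7, ZNF211, ZNF331, ZNF418, ZNF444, ZNF534, ZNF583 and ZNF765, were above 66% in both. Among these, the starts used for ZNF211, ZNF765, ZNF583, ZNF444 and ZNF331 lie 2773, 5356, 6366, 8688 and 18618 bp from the canonical ones. Their core levels therefore describe the start furthest upstream and not the canonical start.

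At single CpGs the lines were compared by Fisher's exact test (two-sided, Benjamini-Hochberg adjusted over all 24454751 nuclear CpGs tested, adjusted P under 0.05), which compares these 2 libraries and covers read sampling only. Of 9126 CpGs in member promoters, 1313 (14.4%) were higher and 863 (9.46%) lower in OCI-AML3. Over all nuclear CpGs 3.86% were higher and 14.7% lower, and over all protein-coding promoters 5.10% and 13.1%. In the 9 members with higher promoters, 492 of 619 CpGs within 500 bp of the start were higher and 14 lower. Between 500 and 2000 bp, 205 of 606 were higher and 102 lower. The 9 members were chosen by the mean of these same CpGs, so their counts are a description.

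Higher and lower CpGs took different places along the same promoters. In the 100 bp after the start the 9 promoters averaged 79.0% in OCI-AML3 and 10.9% in AML5. From 1700 to 1600 bp upstream they averaged 48.7% and 93.7%, over 10 CpGs. The other 76 members had 16.3% and 10.9% after the start and 82.3% and 87.7% from 1700 to 1600 bp upstream. The split into 9 and 76 used these CpGs, so the contrast between the sets is a description. In all protein-coding genes the values were 14.2% and 16.7% after the start and 67.6% and 75.5% from 1700 to 1600 bp upstream.

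**Figure D2:**
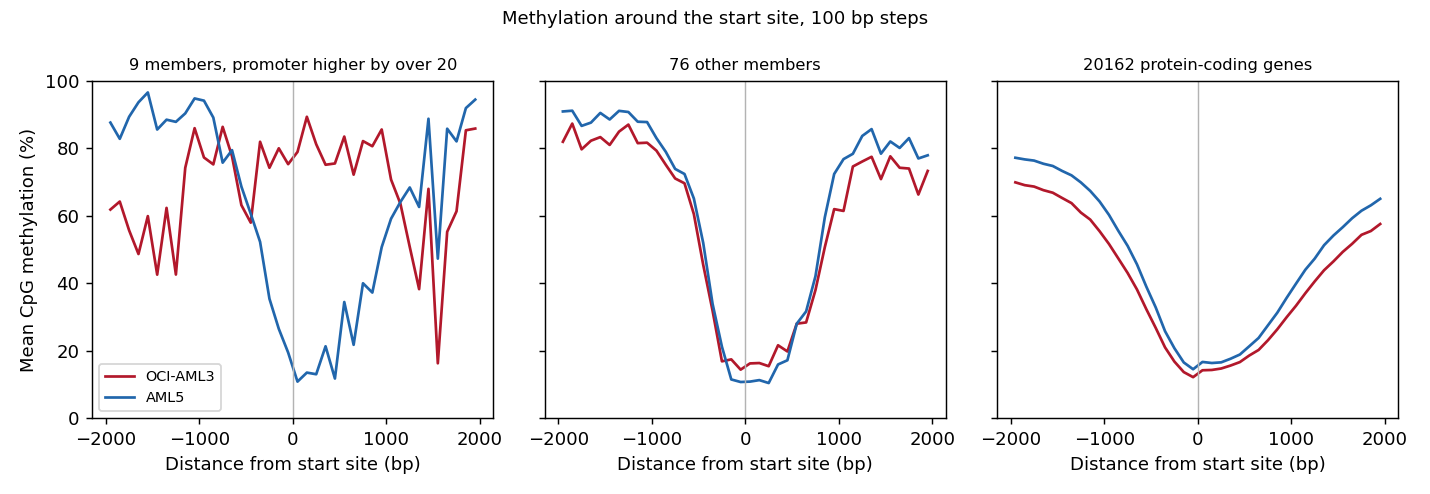
Mean CpG methylation (%) in 100 bp steps by distance from the start site (bp), OCI-AML3 in red and AML5 in blue, for the 9 members with higher promoters, the other 76 members and all 20162 protein-coding genes. In the 9 members AML5 falls to 10.9% after the start while OCI-AML3 is at 79.0%, and the outer flanks are lower in OCI-AML3.

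Runs of neighboring CpGs called in the same direction show the extent at single genes. In ZNF606, 98 CpGs over 817 bp, from 178 to 994 bp downstream of the start, averaged 86.4% in OCI-AML3 and 7.27% in AML5. In the same promoter 11 CpGs from 1998 to 431 bp upstream averaged 17.7% and 95.1%. The promoter mean of ZNF606 combines differences of opposite sign, and the 2000 bp upstream alone differed by -34.8 points. In ZNF160, 48 CpGs over 748 bp averaged 75.9% in OCI-AML3 and 3.41% in AML5, and 9 CpGs from 1913 to 1591 bp upstream averaged 21.7% and 95.4%. ZNF347 had a run of 41 CpGs at 79.4% and 2.87%, next to a run of 4 upstream CpGs at 17.9% and 93.4%. ZNF471 had 28 CpGs at 85.7% and 2.00%, and 5 upstream CpGs at 16.2% and 88.5%. Other long runs of higher CpGs were found in ZNF610 (51 CpGs), ZNF329 (43), ZNF256 (41), ZNF841 and ZNF432 (the same 39), ZNF677 (37), ZNF814 (36) and ZNF154 (32).

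**Figure D3:**
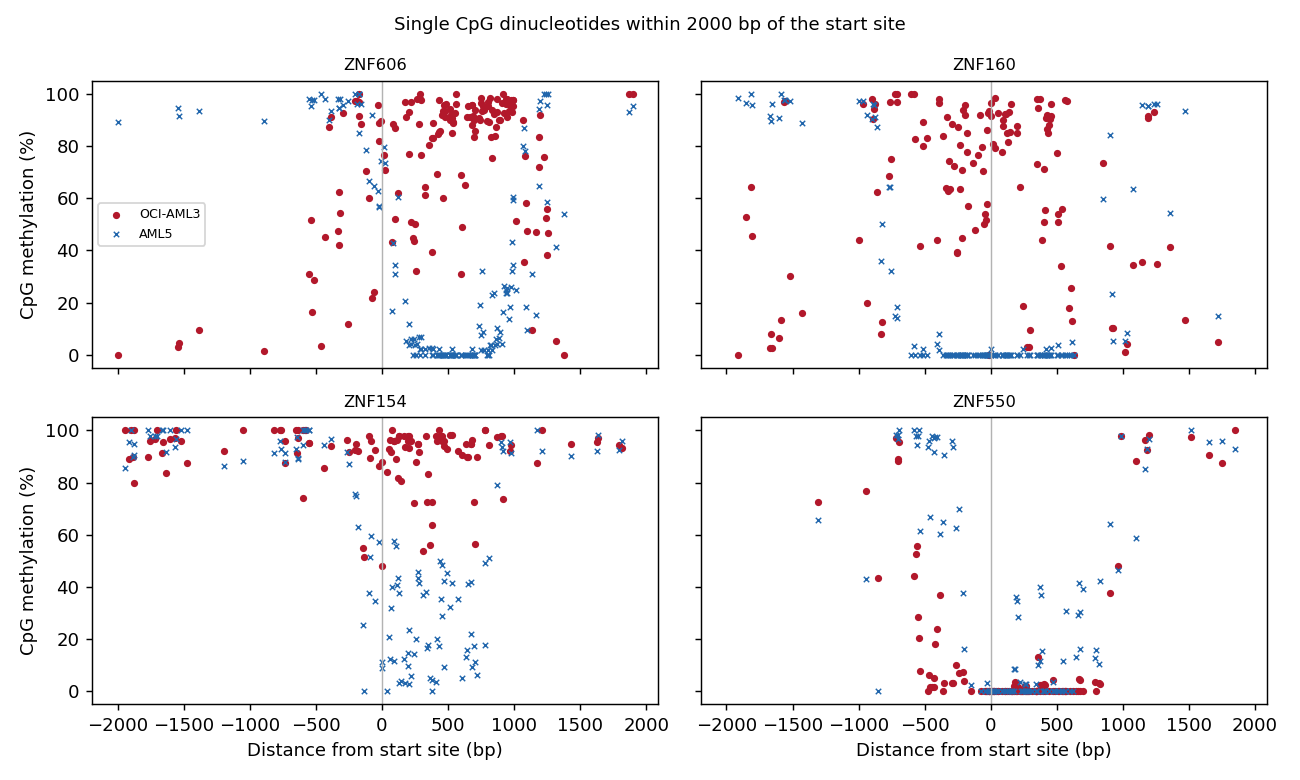
Methylation (%) of each CpG by distance from the start site (bp) in 4 members, OCI-AML3 as red dots and AML5 as blue crosses. ZNF606 and ZNF160 are higher around or after the start and lower far upstream in OCI-AML3. ZNF154 is higher around the start with little change outside it. ZNF550 is lower upstream, with its longest unbroken run of lower CpGs between 581 and 407 bp and further lower CpGs nearer the start.

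Gene bodies, from 2000 bp past the start to the gene end, differed mainly in the opposite direction. Of 85 member bodies, 13 were lower in OCI-AML3 by over 20 points and 0 were higher, a share of 15.3% against 7.58% of 18292 bodies over all protein-coding genes, of which 0.541% were higher. The lower share was 5.93% among the other genes of the stretch and 8.54% among ZNF genes elsewhere on chromosome 19. Member bodies had medians of 88.5% (OCI-AML3) and 91.7% (AML5), with a median difference of -3.30 points, smaller than the -4.93 points over all bodies. A minority of members with large decreases thus stood beside a majority with dense methylation in both lines.

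ZNF606 had the largest decrease, at 38.9% against 90.8% in AML5. Its body (chr19:58488444-58512716) held 228 CpGs, of which 164 were lower and 1 higher. Its share of methylated calls was 36.4% (35.4 to 37.5) in OCI-AML3 and 90.1% (89.5 to 90.8) in AML5. ZNF256 (chr19:58452201-58457073) had 44.0% and 85.7%. ZNF160 (chr19:53569859-53604686) had 480 CpGs, at 56.8% against 94.0% in AML5. ZNF415 (chr19:53611132-53634329) had 53.9% and 87.0%. These 4 bodies were at or above 85.7% in AML5 and at or below 56.8% in OCI-AML3. ZNF347, ZNF418, ZNF665, ZNF471, ZNF841, ZNF667, ZNF772, ZNF677 and ZNF528 made up the remaining 9, with differences from -31.3 to -20.5 points. ZNF347 is a case where a start of its neighbor ZNF415 lies inside the body, and without the 78 CpGs near such starts its difference was -43.1 points. ZNF610 lay just short of the threshold, with 66.3% and 85.5%.

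Increases in member bodies were few and smaller. ZNF808, which binds MER11 retroviral elements, had 91.7% in OCI-AML3 and 78.5% in AML5 (13.2 points), and 15.0 points without CpGs near other start sites. ZNF551 had 91.6% and 82.0%, but its body contains the start of ZNF154. Without the 124 CpGs near other start sites ZNF551 had 91.8% and 92.6%. ZNF749 (94.6% and 91.8%) and ZNF134 (93.2% and 90.7%) followed. Of 23784 tested CpGs in member bodies 3000 (12.6%) were lower and 689 (2.90%) higher. Over the bodies of all genes 13.1% were lower and 3.0% higher, so both shares are near those of all genes.

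Most members with a higher core had a lower body. Of the 16 members with a higher core, 11 (68.8%) had a body lower by over 20 points, and of the 67 with a core within 20 points 2 did (2.99%), namely ZNF418 and ZNF528. Over all protein-coding genes these shares were 31.9% of 521 genes and 5.14% of 14153. Among ZNF genes elsewhere on chromosome 19 they were 42.9% of 14 and 5.07% of 138. With the 2000 bp promoters, 5 of the 9 higher members had lower bodies (ZNF160, ZNF347, ZNF471, ZNF606 and ZNF667), as did 8 of the other 76, while 30.3% of 317 higher promoters over all genes did and 2 of 3 among ZNF genes elsewhere on chromosome 19. The body values of the 9 had a median of 56.8% in OCI-AML3 and 84.1% in AML5, whereas the other 76 had 89.3% and 92.3%. The other 4 of the 9 were ZNF154, ZNF814, ZNF329 and ZNF610, with body differences of 0.02, -1.60, -7.92 and -19.2 points. The ZNF329 body contains that gene's canonical start, and 118 of its CpGs were lower and 66 higher. Across the 85 members the promoter and body differences had a Pearson r of -0.58 and a Spearman rho of -0.33. Over 164 ZNF genes elsewhere on chromosome 19 both were also negative, at -0.34 and -0.19. Over 18075 protein-coding genes these were 0.14 and 0.16, and genes are not independent replicates, since all values come from the same pair of libraries.

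**Figure D4:**
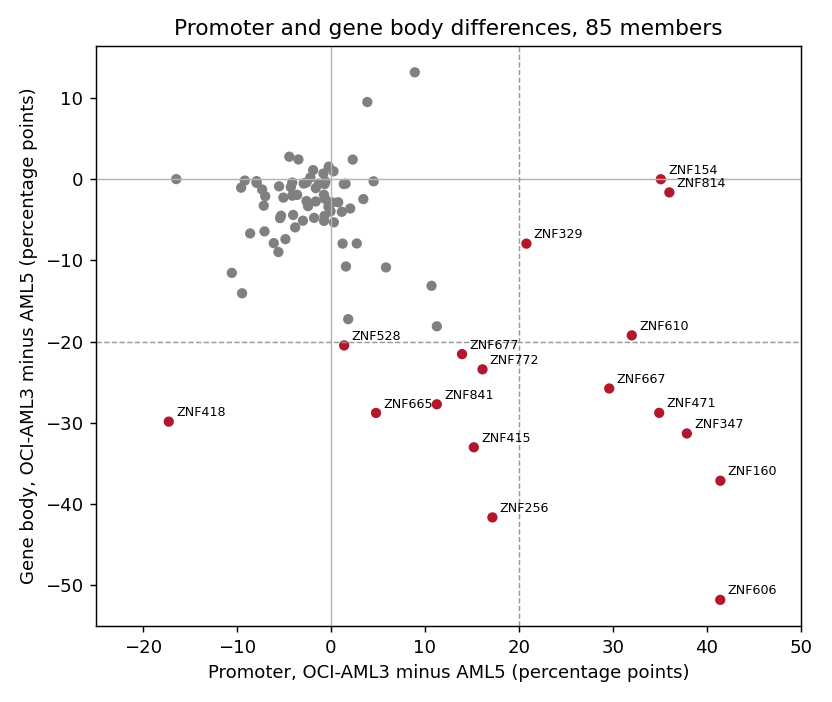
Difference in promoter methylation (horizontal) against difference in gene body methylation (vertical), OCI-AML3 minus AML5 in percentage points, for the 85 members; red points passed 20 points in either measure and the dashed lines mark 20 and -20. Of the 13 members below -20 in the body, 12 have a promoter difference above 0 and 1, ZNF418, below.

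Gene length and finger number overlapped between the 9 members with higher promoters and the rest. The 9 genes had a median length of 31536 bp (12930 to 40344) and the other 76 had 20102 bp (3117 to 96500). They encoded a median of 14 fingers (8 to 23), against 12 (0 to 26). CpGs listed within 500 bp of the start had medians of 66 and 60. On the minus strand lay 7 of the 9 and 31 of the 76. None of these differences was tested.

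The changed members were unevenly placed along the stretch, which was not tested. In steps of 1 Mb from position 52500000, the step from 53500000 held 11 members with 2 higher promoters (ZNF160 and ZNF347) and 5 lower bodies. The step from 52500000 held 24 members with 1 higher promoter (ZNF610) and 2 lower bodies (ZNF841 and ZNF528). The step from 56500000 held 9 members with 2 of each, in the neighbors ZNF667 and ZNF471. The last step, from 58500000 to 58700000, held 4 members with 2 higher promoters (ZNF606 and ZNF329) and 1 lower body. The step from 55500000 held 7 members, among them ZNF580 and ZNF581, with 0 of either. The step from 57500000 held the most members, 30, with 2 higher promoters and 3 lower bodies.

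**Figure D5:**
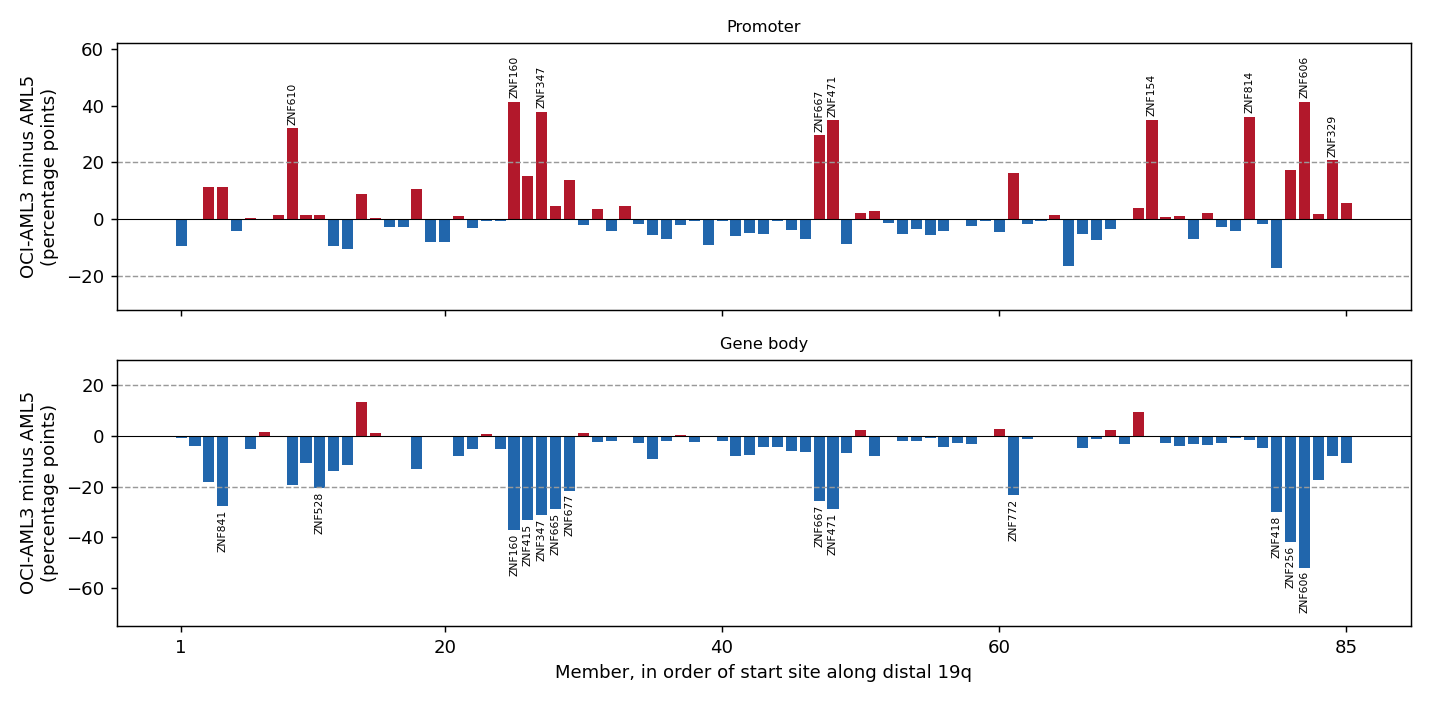
Difference in promoter (top) and gene body (bottom) methylation, OCI-AML3 minus AML5 in percentage points, with 1 bar per member in order of start site; dashed lines mark 20 and -20 points. The 5 neighbors from ZNF160 to ZNF677 all have bodies below -20, with promoters above 20 in ZNF160 and ZNF347, while ZNF667, ZNF471 and ZNF606 pass both limits and ZNF418 has a lower body with a promoter at -17.2.

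The zinc finger exon was taken as the coding part of the last coding exon, with a median length of 1580 bp. A C2H2 pattern in the coding frame (a pair of cysteine codons with 2 codons between them, 12 further codons, and a pair of histidine codons with 3 between them) was found in 84 of the 85 members, the exception being ZNF816-ZNF321P. The lifted coding sequence of ZNF274 is 1958 bases long, not a multiple of 3, so its frame was the one with the most matches. All 1056 fingers lay in the last coding exon, with a median of 13 per member and 26 in ZNF845, and 912 were followed by another at 84 bases. A single finger of ZNF418 is shown, picked for the most CpGs among its fingers that another follows at 84 bases. All 4 CpGs of this finger were lower in OCI-AML3. Capitals mark the codons for the zinc-binding cysteines and histidines.
ZNF418 finger, chr19:58437689-58437772, minus strand: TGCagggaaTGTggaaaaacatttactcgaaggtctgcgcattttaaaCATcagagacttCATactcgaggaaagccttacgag
These 4 CpGs averaged 50.4% in OCI-AML3 and 94.8% in AML5.

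In the exons the members had dense methylation in both lines. Over the 68 members with 10 or more CpGs the medians were 91.7% (OCI-AML3) and 95% (AML5). The exon was lower by over 20 points in 8 (11.8%) and higher in 0, against 10.6% and 2.57% of 5568 exons over all protein-coding genes, so the members' share of lower exons is near that of all genes. ZNF347 had 58.0% and 97.4% over 12 CpGs. ZNF578 had 47.0% and 81.6% over 10. ZNF418 had 38.1% and 72.6% over 27, and ZNF160 65.5% and 94.6% over 24. ZNF665, ZNF329, ZNF415 and ZNF528 were lower by 26.9 to 23.3 points. Of the 8 members, ZNF347, ZNF160 and ZNF329 also had a higher promoter. Of the 9 members with higher promoters 6 had an exon with enough CpGs, and their median was 70.8% in OCI-AML3 and 94.7% in AML5, against 92.7% and 95.1% in 62 of the others.

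Increases in the exons did not pass the threshold. ZNF331, with 34 CpGs of which 5 were higher, had 97.0% in OCI-AML3 against 88.1%. ZNF264 had 94.7% and 90.6%, ZNF543 97.3% and 95.5%, and ZNF611, which binds SVA elements, 96.2% and 94.4%. By CpG, 6.08% of 2564 tested exon CpGs were lower and 0.897% higher, against 12.6% and 5.47% over all last coding exons. Among ZNF genes elsewhere on chromosome 19 the shares were also low, at 4.52% lower and 1.11% higher. Within the finger repeats 1699 of 1922 CpGs (88.4%) passed the depth limit and averaged 87.5% and 91.7%. Outside the repeats 865 of 921 passed and averaged 86.4% and 90.9%, so the difference was about the same, at -4.18 and -4.48 points. The repeat CpGs were most frequent at codon 10 of the finger (10.2%), with 84.5% in OCI-AML3 and 89.7% in AML5.

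ZNF331, an imprinted gene, has annotated starts spread over several places. Around its most upstream start 13 CpGs within 500 bp were at 94.6% in OCI-AML3 and 95.8% in AML5. At the starts from 54024202 to 54025110 OCI-AML3 had 19.6% and AML5 30.3%. At the starts from 54040507 to 54042042 146 CpGs averaged 26.0% against 63.5% in AML5, 110 of them lower and 1 higher. The starts from 54057753 to 54058741 had 26.8% and 68.8% over 120 CpGs, 87 of them lower and 0 higher. Of these CpGs, 1 in the first set and 0 in the second were between 30% and 70% in both lines. The promoter window at the most upstream start, 34.3% and 39.9%, contains neither of these sets of starts. At the start of the canonical transcript, 18618 bp away, the ZNF331 promoter difference was -34.0 points over 2000 bp to each side and -48.5 over 500 bp, which made it the 1 member promoter lower by over 20 points at canonical starts.

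The other members named for their known promoter methylation in cancer did not pass 20 points, apart from ZNF154 and ZNF471 above. ZNF582 had 30.7% in OCI-AML3 and 34.5% in AML5. ZNF671 had 26.1% and 25.3%, and its core 6.78% and 4.40%. ZNF677 had 70.3% and 56.4%, with a core at 71.0% and 39.1%. ZNF274, which brings SETDB1 to the 3′ exons of zinc finger genes, had 46.5% and 40.6% at its promoter. Its body had 73.8% and 84.7%, and a run of 22 CpGs downstream of the start had 37.1% and 2.87%. In the same promoter 7 CpGs from 412 to 230 bp upstream were lower in OCI-AML3, at 5.31% and 73.9%.

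Promoters of 18 genes whose products act with KRAB zinc finger proteins were listed beside the members. Of these 3 were lower in OCI-AML3 by over 20 points and 0 higher, against 8.61% and 1.79% of all protein-coding promoters. The mean was lower in OCI-AML3 in 16 of the 18, and in 84.7% of all promoters. Their median difference was -3.82 points, against -4.68 over all genes. CHD4, a nucleosome remodeler, had 45.0% in OCI-AML3 and 81.8% in AML5. SETDB1 had 39.6% and 64.0%, and the histone deacetylase gene HDAC2 had 69.3% and 91.2%. The windows of this list lie at the start furthest upstream, and windows at the canonical starts were not measured for it. Those of CHD4 and HDAC2 held 75 and 38 CpGs past the depth limit. TRIM28, the corepressor itself, had 7.71% and 12.0%. ZFP57, a KRAB zinc finger gene that guards imprints, had 85.1% and 70.9%.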

How the data were processed

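Whole-genome bisulfite libraries of OCI-AML3 and AML5, 1 per line, were read as deposited. Per the labels and methods, the authors sequenced paired-end reads, aligned them to hg19 with Bismark on Bowtie 0.12.8 and deposited, for each CpG, the counts of its methylated and its unmethylated calls, both strands added, with no normalization. Whether duplicate reads were removed is not given in the sources used here. Each table listed 28217448 CpGs, with a median of 27 (OCI-AML3) and 30 (AML5) calls per nuclear CpG.

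Levels were computed per CpG with more than 5 calls in both lines and averaged per region (Python 3.11.15, numpy 2.4.6, pandas 2.3.3), with genes from GENCODE v44 lifted to GRCh37, a later release than the authors'. Regions with at least 10 CpGs were called at a difference of over 20 percentage points, the limit the study applied to promoters. Single CpGs were compared by Fisher's exact test (scipy 1.17.1) with Benjamini-Hochberg adjustment over all nuclear CpGs, and both steps were checked on simulated counts. With 1 library per line no test covers culture or line variation, and no set test was made. Members and lists were chosen with earlier results of these data known. Named genes were the 8 largest decreases and the 8 largest increases in promoters, the 4 largest each way in bodies and in exons, and ZNF331, ZNF154, ZNF471, ZNF582, ZNF671, ZNF677 and ZNF274 whatever their values; members past a threshold or in the runs were named besides, after their values were seen. The partner list held TRIM28, SETDB1, ATF7IP, CBX1, CBX3, CBX5, CHD3, CHD4, HDAC1, HDAC2, ATRX, DAXX, MPHOSPH8, TASOR, PPHLN1, MORC2, ZFP57 and UHRF1. Fingers were searched in coding DNA of the reference, and alternatives covered depth, averaging, region limits, start site and thresholds.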

Additional observations from a re-analysis of the deposited data

How the results depend on the processing

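Of 84 alternative values of the counts, 66 stayed within 1.5 times and 18 did not. Promoters lower in OCI-AML3 (0) became 1 with the share of all calls, 3 at a difference over 10 points, 5 with the 2000 bp upstream only, 1 at the canonical start and 1 within 500 bp of it. Promoters higher (9) became 16 over 10 points, 15 within 1000 bp, 16 within 500 bp, 4 with the upstream side only and 15 within 500 bp of the canonical start. Bodies lower (13) became 21 over 10 points, 5 over 30 points and 4 with the whole gene, which includes the promoter side. Bodies higher (0) became 1 over 10 points and 1 with the whole gene. Exons lower (8 of 68) became 3 of the 28 with at least 20 CpGs, 16 over 10 points and 3 over 30 points. Leaving out CpGs near other start sites, the bodies beyond 5000 bp, 1 member per overlapping set and the canonical 500 bp window were chosen after seeing the data. Of 245 alternative values of the 22 named differences past 20 points, 1 reversed: the ZNF606 promoter was -34.8 points with the upstream side only. The 3815 lower and 1884 higher CpGs of member regions became 3709 and 1873 at 10 reads or more, and 3150 and 1647 at an adjusted P under 0.01. No paired analysis was possible because each line has 1 library, and no library could be left out. Regions of duplicated genes rest on uniquely placed reads, and in the members' last coding exons 2564 of 2843 CpGs passed the depth limit. Whether placement of reads among near-identical copies bears on a difference was not tested. Overlaps among members touch 8 promoters and 23 gene bodies, which are not separate measurements. The most upstream starts of ZNF83, ZNF432, ZNF28 and ZNF331 lie 53473, 46900, 35967 and 18618 bp from the canonical ones.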

Other observations

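The stretch also holds 11 zinc finger genes with other names (ZSCAN, ZFP, ZIM, ZIK and PEG3), a list made after the data were seen. Their promoters differed by a median of -5.08 points, with 0 lower and 1 higher by over 20. That one was ZFP28, a KRAB zinc finger gene whose start lies between those of ZNF471 and ZNF470, with 75.6% in OCI-AML3 and 26.9% in AML5. Its body had 47.7% and 86.6%, so it had the higher promoter and lower body seen in ZNF471. PEG3, an imprinted gene that shares its promoter with ZIM2, had 77.6% and 75.1% at the promoter, and 37.3% and 57.5% in the body. ZIM3, a strong KRAB repressor, had 62.5% and 79.4%. ZSCAN1 (80.1% and 72.4%) and ZSCAN5A (41.3% and 35.0%) were higher in OCI-AML3 by under 10 points.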
